A study of Oryza sativa with 2 samples.

Results

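The peaks described here are the sites listed on the arms of rice chromosomes 11 and 12, the pair with the fewest listed sites per megabase (Mb) of arm, for a Myc-tagged form of the transcription factor OsWRKY11. They were taken from a deposited list of 6672 peaks by position alone. A peak was included if its summit, the base of highest coverage, lay between 1000000 and 11000000 or between 13000000 and 27980000 on chromosome 11. On chromosome 12 the limits were 1000000 to 10900000 and 12900000 to 26490000. These windows leave out 1 Mb at the start, about 1 Mb before the last listed position and 1 Mb on each side of the centromere. They held 726 of the 6672 peaks, 369 on chromosome 11 and 357 on chromosome 12. The arms of chromosomes 1 to 10, cut in the same way, held 5069 and were used for comparison. The members were chosen by summit position and the pair itself by its number of listed peaks per Mb, so its low density is a description and not a tested result.

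The material was shoot tissue of a rice line that carries pUbi:OsWRKY11-Myc, a transgene in which a ubiquitin promoter, active in most cells, drives the tagged factor. Chromatin of 2 g of shoots was fixed with 1% formaldehyde. In the study's design text the plants were 3 weeks old, whereas the sample titles carry the tag 30D. The series has 1 ChIP library (chromatin immunoprecipitation followed by sequencing, here with an antibody to the Myc tag) and 1 input library, DNA of the same line sequenced without an antibody. Neither library had a replicate, and no untagged plant was analysed here. The series concerns how OsWRKY11 at low and at high amounts affects heading, when the panicle emerges.

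WRKY proteins are plant transcription factors that bind DNA through a WRKY domain, typically at short elements called W-boxes, and many of them act in defence against pathogens. Chromosomes 11 and 12 of rice carry duplicated segments at the ends of their short arms, which have stayed very alike in sequence. Both chromosomes are also known for clusters of disease resistance genes. No genome sequence or gene positions in the coordinates of the list were used here. Peaks are therefore given by position, without the gene they lie in, and no DNA sequence is shown.

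Chromosome 11 had 14.8 listed peaks per Mb of arm (95% Poisson interval 13.3 to 16.4, 24.98 Mb) and chromosome 12 had 15.2 (13.7 to 16.9, 23.49 Mb). The arms of chromosomes 1 to 10 had 18.3 per Mb when pooled (17.8 to 18.9, 276.33 Mb). The density was thus 0.805 times that of chromosomes 1 to 10 on chromosome 11 (exact interval 0.723 to 0.895) and 0.828 times on chromosome 12 (0.742 to 0.923). Between the pair the ratio of chromosome 11 to chromosome 12 was 0.972 (0.838 to 1.13), so their order was not resolved. The next lowest densities were 16.4 per Mb on chromosome 8 (14.9 to 18.1) and 17.02 on chromosome 9 (15.2 to 18.98). Their intervals overlap those of chromosomes 11 and 12. The highest was 19.6 on chromosome 1 (18.3 to 21.1). All these intervals cover counting error only and treat peaks as independent.

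**Figure D1:**
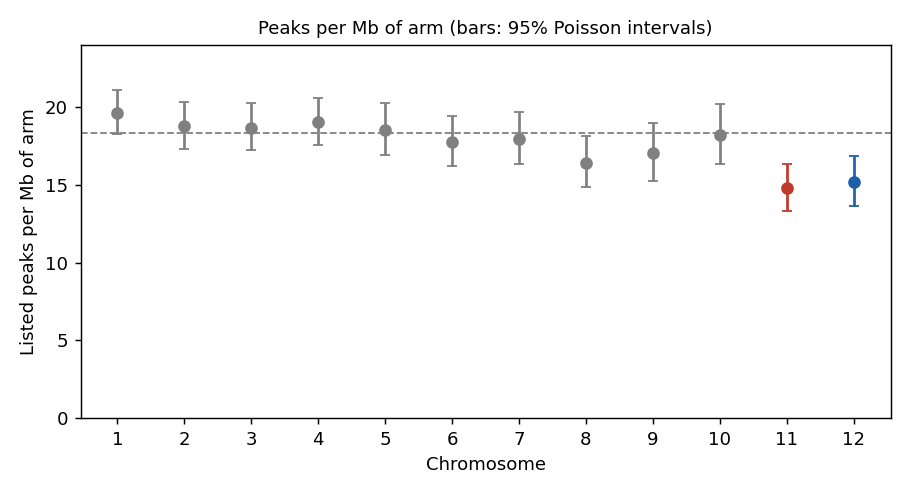
Listed peaks per Mb of arm on each chromosome, with 95% Poisson intervals as bars and the pooled value of chromosomes 1 to 10, 18.3 per Mb, as a dashed line. Chromosomes 11 (red, 14.8) and 12 (blue, 15.2) sit lowest, and the interval of chromosome 8 (16.4) overlaps theirs.

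All 4 arms of the pair lay below the pooled density of chromosomes 1 to 10, but single arms elsewhere were as sparse. On chromosome 11 the short arm had 14.8 peaks per Mb (148 peaks, 12.5 to 17.4) and the long arm 14.8 (221 peaks, 12.9 to 16.8). On chromosome 12 the short arm had 14.04 (139 peaks, 11.8 to 16.6) and the long arm 16.04 (218 peaks, 13.98 to 18.3). Counted from the lowest of 24 arms, these took places 7, 6, 2 and 8. The short arms of chromosomes 8 (14.3) and 2 (14.4) and the long arm of chromosome 3 (14.5) lay in the same range. The lowest arm was the short arm of chromosome 9, with 7.5 per Mb, which rests on 6 peaks.

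The density relative to chromosomes 1 to 10 varied with the height of the peaks. The pileup of a peak is the number of ChIP fragments over its summit, and no listed peak had fewer than 13. On chromosome 11, peaks of 13 to 14 fragments were 0.897 times as dense as on chromosomes 1 to 10 (134 peaks, exact interval 0.747 to 1.07). The ratio was 0.809 at 15 to 16 fragments (138 peaks, 0.675 to 0.962) and 0.767 at 17 to 19 (79 peaks, 0.603 to 0.964). At 20 or more fragments it was 0.511 (18 peaks, 0.299 to 0.818). Chromosome 11 thus had the lowest relative density among its tallest peaks, with intervals that overlap from class to class.

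On chromosome 12 the ratios were 0.790 at 13 to 14 fragments (111 peaks, 0.646 to 0.958), 0.822 at 15 to 16 (132 peaks, 0.684 to 0.982) and 0.857 at 17 to 19 (83 peaks, 0.678 to 1.07). At 20 or more fragments the ratio was 0.935 (31 peaks, 0.627 to 1.35). Of those 31 peaks, 13 lay over high input coverage and are described further on, against 1 of the 18 on chromosome 11. Without such peaks on any chromosome the ratio at 20 or more fragments was 0.596 on chromosome 12 (18 peaks, 0.349 to 0.957) and 0.530 on chromosome 11 (17 peaks, 0.305 to 0.860). The lower classes could hold none of them, because no listed peak had a fold enrichment, explained below, under 2.00. Leaving such peaks out could therefore change the tallest class only. Over low backgrounds, then, the tallest class had the lowest ratio on both chromosomes, with intervals that overlap those of the other classes.

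**Figure D2:**
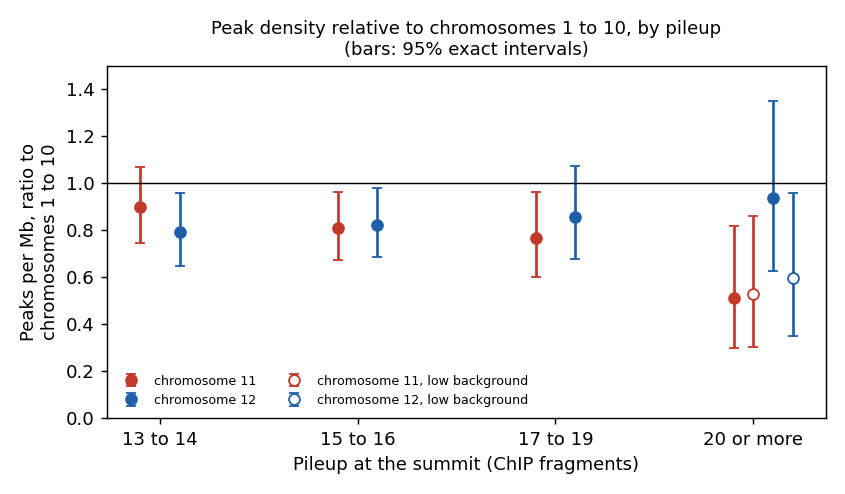
Peaks per Mb on chromosomes 11 (red) and 12 (blue) divided by the value of chromosomes 1 to 10, for 4 classes of pileup in ChIP fragments, with 95% exact intervals as bars and a line at 1. Open circles in the highest class leave out peaks over a background of at least 2 times the floor on all chromosomes. They lie at 0.530 and 0.596, where the filled circles lie at 0.511 and 0.935.

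By the authors' own q-values, an estimate of the false discovery rate, most of the peaks were weak. A q of at most 0.05 was seen at 43 of the 369 peaks on chromosome 11 (11.7%, 95% Wilson interval 8.77 to 15.3%) and at 60 of the 357 on chromosome 12 (16.8%, 13.3 to 21.0%). The share was 15.8% over all listed peaks and 14.6% over the arms of chromosomes 1 to 10, where single chromosomes ranged from 12.4% on chromosome 9 to 16.9% on chromosome 3. The peak list comes from the same ChIP and input libraries that chose the pair, so these shares are descriptions and no test was made. The share on chromosome 11 lay below all 10 of the others and that on chromosome 12 within their range, and the intervals of the pair overlap.

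Counted per Mb, peaks that passed this q were scarcer on chromosome 11 than on chromosomes 1 to 10, at 1.72 per Mb (1.25 to 2.32) against 2.67 (2.48 to 2.87). Chromosome 12 had 2.55 (1.95 to 3.29), 0.955 times the value of chromosomes 1 to 10 (0.722 to 1.24). Without the peaks over high input coverage it had 50 such peaks and a ratio of 0.833 (0.612 to 1.11). The ratio on chromosome 11 was 0.644 (0.462 to 0.876), and 0.658 (0.470 to 0.899) without the peaks over high input coverage. Between the pair the ratio of chromosome 11 to chromosome 12 was 0.674 (0.445 to 1.01), an interval that includes 1.

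The fold enrichment of a peak, also the authors' value, is the ChIP signal over the background, each with 1 fragment added. Its median was 2.38 on chromosome 11 (quartiles 2.24 and 2.54), 2.39 on chromosome 12 (2.24 and 2.54) and 2.39 on chromosomes 1 to 10 (2.23 and 2.54). Folds of 3 or more were seen at 9 peaks on chromosome 11 (2.44%, 1.29 to 4.57%) and 13 on chromosome 12 (3.64%, 2.14 to 6.13%). The share was 4.48% over all listed peaks and 4.52% over the arms of chromosomes 1 to 10. There it ranged from 2.49% on chromosome 8 to 7.44% on chromosome 3. Folds of 4 or more were seen at 3 peaks on chromosome 11 and 2 on chromosome 12, in all 0.689% of the 726 (0.295 to 1.60%), against 0.629% of all listed peaks and 0.651% on the arms of chromosomes 1 to 10. The median fold thus differed little from that of the other arms. Per Mb, the pair had 0.548 times as many peaks with folds of 3 or more as chromosomes 1 to 10 (0.337 to 0.850). The ratio was 0.435 on chromosome 11 (0.196 to 0.840) and 0.668 on chromosome 12 (0.3502 to 1.17). Single chromosomes from 1 to 10 ranged from 0.4095 such peaks per Mb on chromosome 8 to 1.39 on chromosome 3. Chromosome 12, with 0.553, lay above chromosome 8 and close to chromosome 6 (0.554). Chromosome 11 lay below them all, with an interval that overlaps that of chromosome 8. These peaks are part of the count that the pair was chosen by, so their low density is not a separate result.

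**Figure D3:**
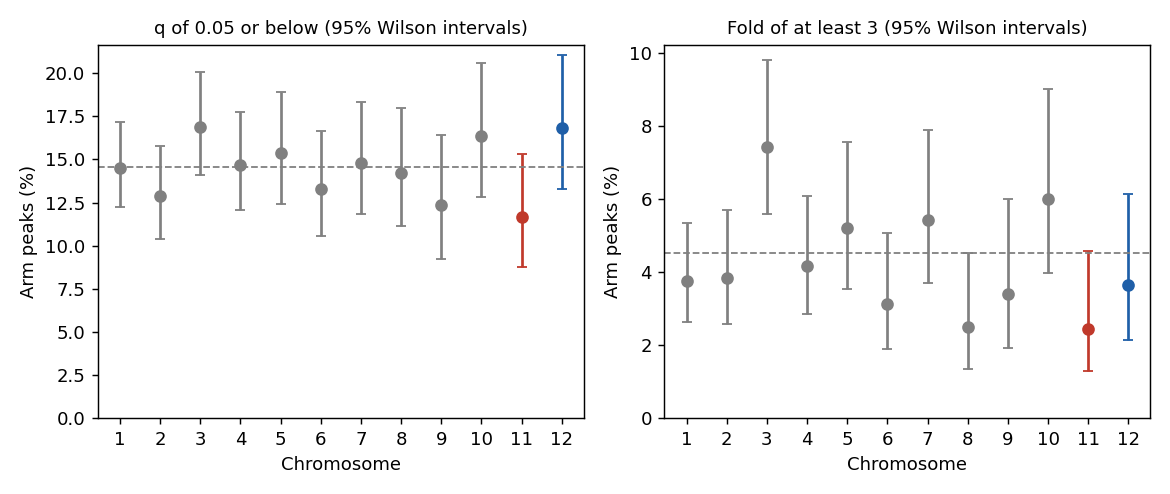
Percent of arm peaks with a q of 0.05 or below (left) and with a fold of at least 3 (right) on each chromosome, with 95% Wilson intervals as bars and the pooled value of chromosomes 1 to 10 as a dashed line. Chromosome 11 (red) is lowest in both panels, at 11.7% and 2.44%, and chromosome 12 (blue) lies within the range of chromosomes 1 to 10 in both, at 16.8% and 3.64%.

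Most members stood on the same low steps of signal. The background at a summit is the ChIP coverage that would be expected there by chance, in fragments, and its most common value in the list, 5.69, is called the floor. At the floor, 71 of the 726 peaks had 13 fragments (a fold of 2.09, q = 0.737), 119 had 14 (2.24, q = 0.490) and 89 had 15 (2.39, q = 0.278). A further 70 had 16 fragments (2.54, q = 0.133) and 38 had 17 (2.69, q = 0.0538). At 18 fragments, reached by 29 peaks, the fold was 2.84 and q was 0.0192. At the floor a single fragment therefore separated peaks on either side of the limit of 0.05. A background above the floor was found at 40.1% of the peaks on chromosome 11 (35.2 to 45.2%), 40.3% on chromosome 12 (35.4 to 45.5%) and 41.3% on chromosomes 1 to 10.

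The 3 highest sites of chromosome 11 all lay on its long arm. The highest, at 24060625 to 24061150, carried 32 fragments at its summit, for a fold of 4.82 (95% interval 3.34 to 6.75). It was 526 bp wide, and a second peak that passed q lay 183 bp before it, at 24060022 to 24060441, with 23 fragments (fold 2.87). The site at 25180310 to 25180752 also had 32 fragments, over a background 1.09 times the floor, for a fold of 4.58 (3.17 to 6.40). At 19791177 to 19791452 the summit carried 29 fragments, for a fold of 4.16 (2.83 to 5.91). These intervals overlap, so the order of the 3 was not resolved.

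After them came a long-arm site at 23578736 to 23579204, where 25 fragments gave a fold of 3.64 (2.40 to 5.30). The fifth was the peak at 2938658 to 2939455 on the short arm, where 21 fragments gave a fold of 3.29 (2.09 to 4.95). It was the widest of the chromosome's arm peaks, at 798 bp, and the short arm's only peak with a fold of at least 3. The other 4 peaks past that fold each carried 20 fragments (fold 3.14), and all lay on the long arm. The long arm thus held 8 of the 9, beside 221 of the chromosome's 369 arm peaks. With 9 peaks, a difference between the arms was not tested.

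Chromosome 12 had its highest sites on the short arm. The peak at 8559973 to 8560227 carried 39 fragments, for a fold of 5.02 (3.61 to 6.82), over a background 1.22 times the floor that matched 17 input fragments. The peak at 4156575 to 4156802 followed with 29 fragments, for a fold of 4.44 (3.02 to 6.31). At 1011144 to 1011488, close to the outer limit of the arm, 24 fragments over the floor gave a fold of 3.74 (2.45 to 5.49). The peak at 2748055 to 2748390 carried 22 fragments, for a fold of 3.44 (2.21 to 5.13).

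Next came 4 peaks with 21 fragments and folds of 3.29 (2.09 to 4.95 for the first 3). An exact tie over the floor was shared by those at 3370111 to 3370440 on the short arm and at 17908448 to 17908691 and 20598001 to 20598220 on the long arm. The peak at 3449815 to 3450164 on the short arm lay just below them, over a background slightly above the floor. In all, 6 of the chromosome's 13 peaks past a fold of 3 lay on the short arm and 7 on the long arm. These arms held 139 and 218 of its arm peaks. The 7 on the long arm had folds from 3.06 to 3.29.

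On the arms of the other chromosomes the highest fold ranged from 4.04 on chromosome 1 to 19.7 on chromosome 6. The values of 4.82 and 5.02 on chromosomes 11 and 12 were above those of chromosomes 1 and 5 (4.34) and below those of the remaining 8. The fifth highest fold was 3.29 on both chromosomes, against 3.22 on chromosome 8 and 4.85 on chromosome 3, the lowest and highest of the 10.

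Peaks over high input coverage were unevenly divided between the pair. A background of at least 2 times the floor, a limit chosen after the list was seen, was found at 13 arm peaks of chromosome 12 (3.64%, 2.14 to 6.13%). On chromosome 11 it was found at 1 arm peak (0.271%, 0.0479 to 1.52%). The share was 2.01% over all listed peaks and 0.69% over the arms of chromosomes 1 to 10, where the highest was 1.43% on chromosome 10. Over whole chromosomes the order was the other way round, with 26 such peaks on chromosome 11 and 16 on chromosome 12, because 25 of those on chromosome 11 lay outside the arm windows. With gaps of at most 100 kb, the 13 peaks formed 3 groups and 1 peak alone. That limit is wider than the median gap of 42.6 kb between neighbouring arm peaks of chromosome 12. The grouping therefore cannot decide whether the 13 peaks are separate sites, and they should not be counted as 13 independent ones.

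The first group, at 5614220 to 5658080 on the short arm, held 4 peaks, all past q, with 71 to 139 fragments and folds from 2.21 to 2.70. It was the only run of at least 4 linked peaks past q, with gaps of at most 20 kb, on these arms. Its summit at 5634137 had 139 ChIP fragments over 136 input fragments, and the ratio scaled for library size was 2.49 (exact interval 1.95 to 3.18). The summit at 5657959 had 71 over 77 and a scaled ratio of 2.25 (1.61 to 3.15).

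The second group, at 16612652 to 16644965 on the long arm, held 6 peaks, of which 3 passed q, with folds from 2.03 to 2.499. Further along, the peak at 20638821 to 20640388 had the highest pileup and background of the 726. It was 1568 bp wide, with 243 ChIP over 258 input fragments at its summit, a background 18.6 times the floor and a scaled ratio of 2.30 (1.92 to 2.75). Its neighbour at 20704090 to 20704468 had 60 over 49 and a scaled ratio of 2.99 (2.01 to 4.45). The lone peak at 20481378 to 20481700 had a fold of 2.11.

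On chromosome 11 the single arm peak of this kind lay at 16534473 to 16535125, with 31 fragments, a background 2.05 times the floor and a fold of 2.52 (1.74 to 3.55). The peak 295 bp before it, at 16533909 to 16534177, had 27 fragments, a background 1.85 times the floor and a fold of 2.42. None of the 22 members with a fold of at least 3 was among the 14 over a background of at least 2 times the floor. Such overlap was rare elsewhere too. On chromosomes 1 to 10, 226 of the 229 peaks past a fold of 3 had a background under that limit. With so few members of either kind, the lack of overlap is not a trait of the pair. The highest fold over a background of at least 2 times the floor was 2.89, whereas each peak past a fold of 3 had a background of at most 1.22 times the floor.

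**Figure D4:**
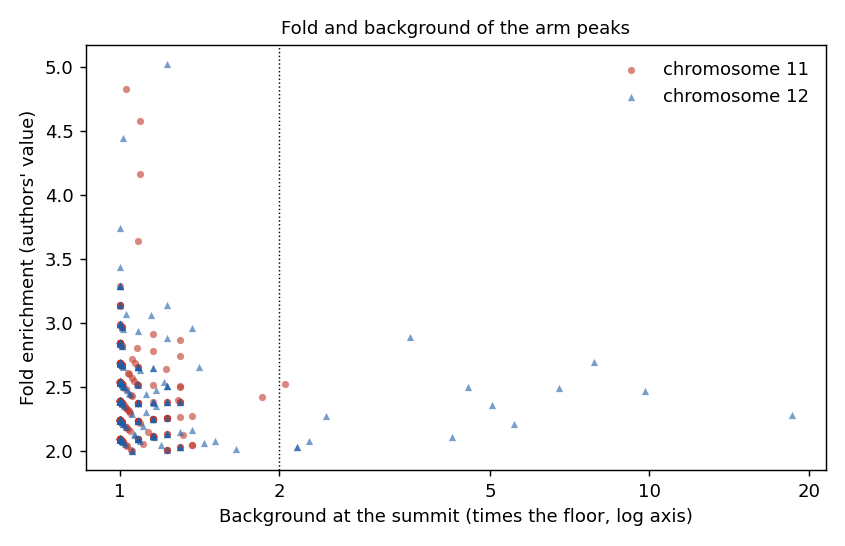
Fold enrichment of each of the 726 arm peaks against its background in multiples of the floor (log axis), with chromosome 11 as red circles, chromosome 12 as blue triangles and a dotted line at 2 times the floor. Right of the line lie 13 peaks of chromosome 12 and 1 of chromosome 11, all with folds below 3, and the folds above 4 lie near the floor.

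The outer short arms, where the chromosomes share their duplicated segment, had peaks at about the density of the same stretch elsewhere. The segment was taken as ending at 2.5 Mb, and its first 1 Mb lies outside the arm windows. In the remaining 1.5 Mb, chromosome 11 had 32 peaks (21.3 per Mb, 14.6 to 30.1) and chromosome 12 had 30 (20 peaks per Mb, 13.5 to 28.6). The same stretch of chromosomes 1 to 10 had 19.02 per Mb (16.8 to 21.4), so the pooled ratio was 1.09 (0.811 to 1.44). In the rest of the short arm chromosome 11 had 13.6 per Mb (116 peaks) and chromosome 12 had 12.98 (109 peaks), against 17.4 on chromosomes 1 to 10. There the pooled ratio was 0.764 (0.662 to 0.879).

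Within the short arms of the pair, the distal stretch was 1.55 times as dense as the rest (1.152 to 2.06), against 1.09 times (0.956 to 1.24) on chromosomes 1 to 10. The split was chosen with the counts known, and no test of the difference was made. Chromosome 8 showed a similar contrast, with 21.3 per Mb in the distal stretch and 13.2 in the rest, and chromosome 10 the reverse, with 10.7 and 21.1. The pattern was therefore not confined to the duplicated pair.

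**Figure D5:**
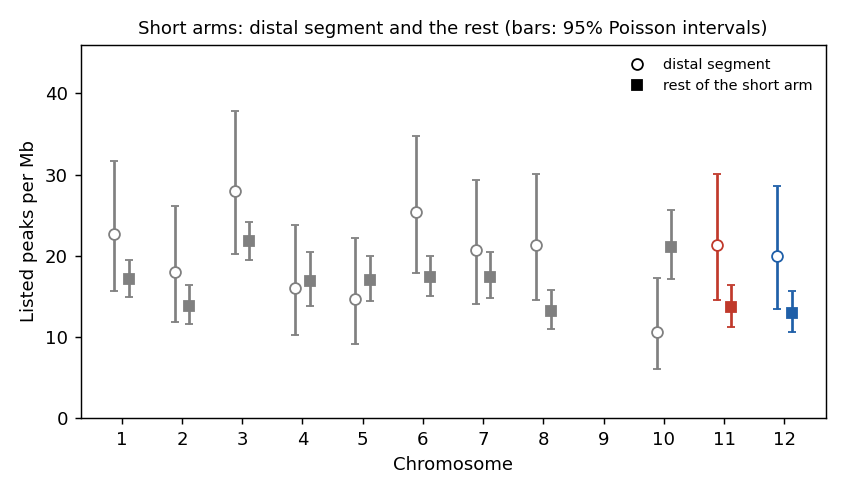
Listed peaks per Mb in the distal segment of the short arm (open circles) and in the rest of the short arm (squares), with 95% Poisson intervals as bars. Chromosomes 11 (red) and 12 (blue) have 21.3 and 20 in the segment and 13.6 and 12.98 in the rest; chromosome 9 is not shown because its short-arm window ends inside the segment.

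In the duplicated stretch the peaks had a median fold close to that elsewhere, while the share past q was low on chromosome 11, with a wide interval. Their pileups ran from 13 to 21 fragments on chromosome 11 and from 13 to 24 on chromosome 12, and the median fold was 2.39 on each, against 2.38 in the same stretch of chromosomes 1 to 10. There, 41 of 272 peaks passed q (15.1%, 11.3 to 19.8%). On chromosome 11 a single peak of the 32 passed q, at 2424777 to 2424957, where 21 fragments gave a fold of 2.91 (1.85 to 4.38). That is a share of 3.13% (0.554 to 15.7%). On chromosome 12, 4 of the 30 passed (13.3%, 5.31 to 29.7%). The highest was the peak at 1011144 described above. Those at 1714216 to 1714777, 1930776 to 1931226 and 2494061 to 2494301 had 18 fragments each and folds of 2.84, 2.82 and 2.84. Whether a peak of one chromosome lies on the copy of a peak of the other was not analysed here. The treatment of reads with several placements was not given, so its effect on counts in these alike stretches is unknown.

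Along the arms the number of peaks per Mb varied, and whether by more than counting error was not tested. In whole windows of 1 Mb, chromosome 11 had a median of 13.5 peaks in 24 windows, from 5 to 25, and chromosome 12 a median of 15 in 22 windows, from 5 to 22. Chromosomes 1 to 10 had a median of 18 in 266 windows, from 6 to 38. At least 20 peaks were found in 7 of the 46 windows of the pair (15.2%) and in 105 of the 266 others (39.5%). That difference restates the low density that the pair was chosen by. The sparsest windows began at 20000000 on chromosome 11 and at 8000000 on chromosome 12, with 5 peaks each, and the latter held the chromosome's highest site. The densest began at 4000000 on chromosome 11, with 25 peaks.

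The longest stretch without a listed peak was 585 kb on chromosome 11, between 5715338 and 6299846, and 506 kb on chromosome 12, between 14219127 and 14725594. On the arms of chromosomes 1 to 10 the longest were 596 kb on chromosome 2, 574 kb on chromosome 7 and 509 kb on chromosome 4. The rest of these chromosomes had none longer than 454 kb, the value of chromosome 3. The median gap between neighbouring peaks was 43.9 kb on chromosome 11 and 42.6 kb on chromosome 12, against 34.6 kb on chromosomes 1 to 10. Gaps were thus wider across the pair in general, which restates the low density that the pair was chosen by. Its longest gaps were among the longest of single chromosomes, though not beyond the longest elsewhere.

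Close neighbours were about as common as elsewhere. A second peak lay within 2 kb for 46 of the 369 peaks on chromosome 11 (12.5%, 9.48 to 16.2%), 34 of the 357 on chromosome 12 (9.52%, 6.90 to 13.01%) and 11.1% on chromosomes 1 to 10 (10.2 to 11.96%). Of the 25 such pairs on chromosome 11, 3 had both peaks past q, all on the long arm, and of the 18 on chromosome 12 none had (95% Wilson interval 0 to 17.6%). On the arms of chromosomes 1 to 10 this was so for 24 of 301 pairs (7.97%, 5.42 to 11.6%), so with this few pairs no difference was detectable. The 3 on chromosome 11 are the pairs around 24060625 and 16534473 given above and one at 17703389 to 17704312, with 20 and 19 fragments and folds of 3.14 and 2.97.

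Widths were small on both chromosomes, with a median of 227 bp on each (quartiles 195 and 296 bp on chromosome 11, 199 and 288 bp on chromosome 12) and 231 bp on chromosomes 1 to 10. Fewer than 200 bp were covered by 30.4% of the peaks on chromosome 11, 25.5% on chromosome 12 and 24.6% on chromosomes 1 to 10. Listed peaks covered 3849 bp per Mb of arm on chromosome 11 and 4035 on chromosome 12. On chromosomes 1 to 10 they covered 4837 bp per Mb, and the lowest single chromosome was 8, with 4223.

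The limits of the windows fell between peaks at varying distances. On chromosome 11 the summits nearest to the start limit of 1000000 were 995274 outside, with a fold of 2.69, and 1003281 inside, with a fold of 2.39. Nearest to the limit at 11000000 they were 10953810 inside (fold 2.24) and 11000579 outside (2.07), and nearest to 13000000 they were 12824933 outside (2.24) and 13038906 inside (2.08). At 27980000 they were 27971719 inside (2.09) and 28112060 outside (2.84). On chromosome 12 the members nearest to the 4 limits had folds from 2.39 to 3.74 and the peaks just outside folds from 2.09 to 2.69. Among the peaks described above by start and end, that at 1011144 to 1011488 on chromosome 12 lies closest to a window limit.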

How the data were processed

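Reads of 1 anti-Myc ChIP and 1 input library were processed by the submitters, whose processing notes list MACS2 2.2.7.1, BWA 0.7.12-r1039 and Trimmomatic 0.36 without a role or order. The settings, the genome build, the treatment of duplicates and that of reads with several placements were not given in the sources used here. A single list was deposited by the authors, and its peak names set the immunoprecipitated library against the input. Per the file headers it gives a pileup (the ChIP signal at the summit), a fold enrichment (a ratio), and p-values and q-values as −log10. All 6672 pileups were whole numbers. The deposited width equals end minus start plus 1, so positions are 1-based.

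The background was solved from the deposited pileup and fold as (pileup + 1)/fold − 1. A Poisson tail at that background gave the deposited −log10 p-values to within 0.000336. The floor of 5.69 fragments was the most common background, found at 3867 peaks to within 0.001. Higher backgrounds fell mostly on multiples of 0.410 (828 of 1014 to within 0.05 of a step), read as the weight of 1 input fragment, or 2.44 input fragments for each ChIP fragment. Library totals are not given, and this ratio is the depth information used.

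Centromere midpoints and the end of the duplicated segment were entered as approximate values from general knowledge of the rice genome, and the arm ends from the last listed position of each chromosome. Densities have exact Poisson intervals, ratios of densities exact conditional intervals, folds Poisson limits of the pileup with the background held fixed, and scaled ratios Clopper-Pearson limits. Shares have Wilson intervals. All are 95% intervals for counting error only. With 1 library per group, and peaks not being replicates, no test was made. Named peaks were the 5 highest folds per chromosome with ties, those with a fold of at least 4, those over the highest background, runs of at least 4 peaks past q, and peaks past q in the distal segment. Other named peaks (those over at least 2 times the floor, close pairs past q and the widest) were chosen after their values were seen. The members and all limits were chosen with earlier results of these data known. The functions were tested on simulated data. Python 3.11.15, numpy 2.4.6, pandas 2.3.3, scipy 1.17.1 and matplotlib 3.10.9 were used.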

Additional observations from a re-analysis of the deposited data

How the results depend on the processing

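Of 56 recomputed values, 31 stayed within the 95% interval (for medians, the quartiles) of the reported value and 25 did not. The density ratio to chromosomes 1 to 10 became 0.644 on chromosome 11 and 0.955 on chromosome 12 for peaks with a q of 0.05 or below, and 0.435 and 0.668 for a fold of at least 3; the cause was not tested. Without peaks over high input coverage, an alternative chosen after seeing the data, the ratio at 20 or more fragments went from 0.935 to 0.596 on chromosome 12. For all arm peaks the density ratio stayed at 0.777 to 0.812 on chromosome 11 and 0.804 to 0.836 on chromosome 12. The settings behind these ranges left out peaks over high input coverage, wider windows or the distal segment, or merged close peaks. The shares past q, for chromosomes 11, 12 and 1 to 10 in that order, were 20.9%, 25.5% and 23.97% at a q of 0.1, and 4.88%, 10.1% and 8.11% at 0.01. With no fragment added, the shares with a fold of at least 3 were 9.76%, 11.8% and 12.4%, and the median folds 2.59, 2.64 and 2.61. Among peaks past q the median folds were 2.84, 2.84 and 2.86. The shares above the floor became 0.271%, 3.64% and 0.690% at 2 times the floor. In the distal segment, 0.667 and 2.67 peaks per Mb passed q on chromosomes 11 and 12. The 5 alternatives that need a genome sequence or gene positions were not run. No paired analysis was possible because each group has 1 library. With 13 to 17 fragments at most summits, a difference of 1 fragment is within counting error.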
